A study of Homo sapiens with 10 samples.

Results

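The regions described here are the ChIP-seq peaks of RWPE1 prostate cells on chromosomes 5, 9 and 20. They were taken from the 5 RWPE1 peak lists as the peaks on these chromosomes, leaving out peaks centred at 38 to 72 Mb of chromosome 9 and at 25 to 30 Mb of chromosome 20, the windows around the centromeres of these chromosomes. The rule kept 4628 of the 13089 RWPE1 peaks, and 103 peaks fell in the left-out windows. The chromosomes were chosen by their peak density in these same lists, so that density is given as a description and was not tested. RWPE1 is a papillomavirus-immortalised line from normal prostate epithelium, and all 5 RWPE1 lists came from cells that carried a stable ERG construct, wild-type or the point mutant ERG P436A, and were kept under puromycin or hygromycin. Lists from an anti-ERG antibody (clone 9FY) were made for wild-type ERG (replicates 1 and 2) and for ERG P436A (1 list), and lists from an anti-EWS antibody (clone G5) for each form of ERG (1 list each). The lists of VCaP, a prostate cancer line with a TMPRSS2-ERG fusion, stand beside them, 1 for ERG and 1 for EWS. The labels do not say whether the replicates came from separate cultures or whether a line was a single clone.

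ERG is an ETS transcription factor that binds DNA at GGAA-containing sites, and gene fusions switch it on in many prostate cancers. EWS is an RNA-binding protein of the FET family, known from its fusions to ETS factors in Ewing sarcoma, and it was studied here as a co-activator of ERG. A ChIP-seq peak marks a stretch where the antibody enriched more DNA than a caller's threshold. The number of peaks on a chromosome arm can therefore change with the number of bound sites and with the amount of DNA of that arm in the cells, and from lists of positions more sites per copy and more copies of an arm cannot be told apart. The lists hold positions only, so read depth is unknown and densities were compared within each list. No genome of the build of the lists (hg19) was used here, so no gene was assigned and no sequence is shown.

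Chromosome 20 was the densest of the 23 chromosomes in each of the 5 RWPE1 lists, and chromosomes 5 and 9 were among the next 3 in each. In VCaP, chromosome 20 ranked 3 for ERG and 14 for EWS. Chromosomes 5, 9 and 20 held 476 of 1901 peaks of wild-type ERG replicate 1 (25.0%), 917 of 1953 of replicate 2 (47.0%) and 716 of 1746 of ERG P436A (41.0%). Of the EWS peaks they held 1772 of 5703 with wild-type ERG (31.1%) and 747 of 1786 with ERG P436A (41.8%). Both VCaP lists had smaller shares, 17.5% for ERG and 9.33% for EWS. Density was 1.38 peaks per Mb against 0.525 on the other chromosomes (1 to 22 and X) for replicate 1, and 2.65 against 0.387 for replicate 2. It was 2.07 against 0.384 for ERG P436A. For EWS it was 5.12 against 1.46 with wild-type ERG and 2.16 against 0.386 with ERG P436A. The ratio of these densities ran from 2.62 (95% interval 2.35 to 2.91) in replicate 1 to 6.85 (6.26 to 7.50) in replicate 2, with a mean of 4.73 ± 2.99 (SD, n = 2) for wild-type ERG. The ratios for ERG P436A (5.39), EWS with wild-type ERG (3.50) and EWS with ERG P436A (5.59) lay between those of the replicates. In VCaP the ratio was 1.63 for ERG and 0.791 for EWS. All intervals here cover counting error only. At the edge of the choice, chromosome 9 ranked 4 in replicate 1 with 0.989 peaks per Mb, and chromosome 17, not chosen, followed with 0.813. Chromosome 1, which was not among those described here, was denser than chromosome 9 in replicate 1 (1.63 peaks per Mb) and in the EWS list of wild-type ERG cells (4.84 against 3.71). Chromosome 19 was denser than chromosome 5 in replicate 2 (1.74 against 1.38).

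The long arms carried most of these peaks. The arm 20q ranked the highest of 41 chromosome arms in each RWPE1 list, and 5q and 9q ranked between 2 and 4. Arms not described here reached these ranks too. The arm 1q ranked 2 in replicate 1 (2.70 per Mb) and for EWS with wild-type ERG (8.66 per Mb), above 5q and 9q. It ranked 4 in both P436A lists. In replicate 2, 19p ranked 3 (3.17 per Mb), above 5q (1.63 per Mb). On 20q, 136 peaks of replicate 1 made 4.12 per Mb, and 258 peaks of replicate 2 made 7.81 per Mb. ERG P436A had 267 peaks there (8.08 per Mb), EWS had 419 with wild-type ERG (12.7 per Mb), and EWS with ERG P436A had 203 (6.15 per Mb). Relative to each list's own other chromosomes this was 7.84 times (6.52 to 9.35) in replicate 1 and 20.2 times (17.6 to 23.2) in replicate 2. The values were 21.1 times (18.3 to 24.1) for the P436A mutant, 8.67 times (7.82 to 9.59) for EWS with wild-type ERG and 15.9 times (13.6 to 18.5) for EWS with ERG P436A. Replicate 1 and EWS with wild-type ERG thus had lower ratios on 20q than the other 3 RWPE1 lists, with intervals that did not overlap. In these 2 lists the other chromosomes include 1q at rank 2. In peaks per Mb, EWS with wild-type ERG was the highest on 20q. VCaP ERG had 4.48 peaks per Mb on 20q (1.88 times its other chromosomes, rank 8), and VCaP EWS had 1.33 (0.412 times, rank 22).

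On 5q the lists were closer together. Replicate 1 had 208 peaks there (2.99 times its other chromosomes), replicate 2 had 216 (4.22 times) and ERG P436A had 223 (4.39 times). EWS had 895 peaks with wild-type ERG (4.61 times) and 308 with ERG P436A (6.02 times). Among the long arms, the fold between the wild-type replicates was largest on 9q. Replicate 1 had 93 peaks on 9q, 1.34 per Mb and 2.56 times its other chromosomes (2.05 to 3.16). Replicate 2 had 324, 4.68 per Mb and 12.1 times (10.7 to 13.7). ERG P436A (190 peaks, 7.16 times), EWS with wild-type ERG (372 peaks, 3.67 times) and EWS with ERG P436A (178 peaks, 6.66 times) lay between them. ERG P436A thus lay between the wild-type replicates on 9q, and on 20q above both, with an interval that overlapped that of replicate 2. The EWS lists have no replicate.

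The short arms were near or below the level of the other chromosomes in 3 of the 5 RWPE1 lists. Over 5p, 9p and 20p together, replicate 1 had 39 peaks (0.666 times its other chromosomes, 0.472 to 0.916), and EWS with wild-type ERG had 86 (0.527 times, 0.421 to 0.653). ERG P436A had 36 peaks (0.842 times, 0.587 to 1.17). EWS with ERG P436A had 58 (1.35 times, 1.02 to 1.76), of which 26 lay on 20p at 2.70 times the other chromosomes. Replicate 2 stood apart with 119 short-arm peaks (2.76 times, 2.27 to 3.34) and was above its other chromosomes on 5p (1.82 times), 9p (3.13 times) and 20p (4.03 times). Of its 46 peaks on 9p, 34 lay between 30 Mb and the left-out window, where the other RWPE1 lists had 1 to 6.

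Long arm over short arm, the density ratio was above 1 on all 3 chromosomes in all 5 RWPE1 lists. On chromosome 5 it ran from 2.32 (1.61 to 3.44) in replicate 2 to 8.17 (5.95 to 11.5) for EWS with wild-type ERG. On chromosome 9 it ran from 3.87 (2.83 to 5.39) in replicate 2 to 10.4 (5.55 to 22.1) for ERG P436A. On chromosome 20 it ran from 5.01 (3.57 to 7.21) in replicate 2 to 15.9 (10.1 to 26.2) for EWS with wild-type ERG. VCaP differed from this order on chromosome 20, where the ratio was 0.714 (0.566 to 0.899) for ERG and 0.653 (0.426 to 0.997) for EWS. On chromosome 9 it was 1.09 (0.861 to 1.38) for VCaP ERG and 0.513 (0.410 to 0.642) for VCaP EWS. On chromosome 5 the long arm was denser in VCaP as well, at 9.71 (6.57 to 15.0) for ERG and 2.42 (1.85 to 3.23) for EWS. A denser long arm in RWPE1 was not limited to the chromosomes described here. Replicate 1 had 0.982 peaks per Mb on 8q and 0.132 on 8p, and 2.70 on 1q and 0.560 on 1p. EWS with wild-type ERG had 3.04 on 8q and 0.0219 on 8p, and 8.66 on 1q and 1.04 on 1p. Some went the other way, such as 19q (0.460) and 19p (1.02) in replicate 1.

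**Figure D1:**
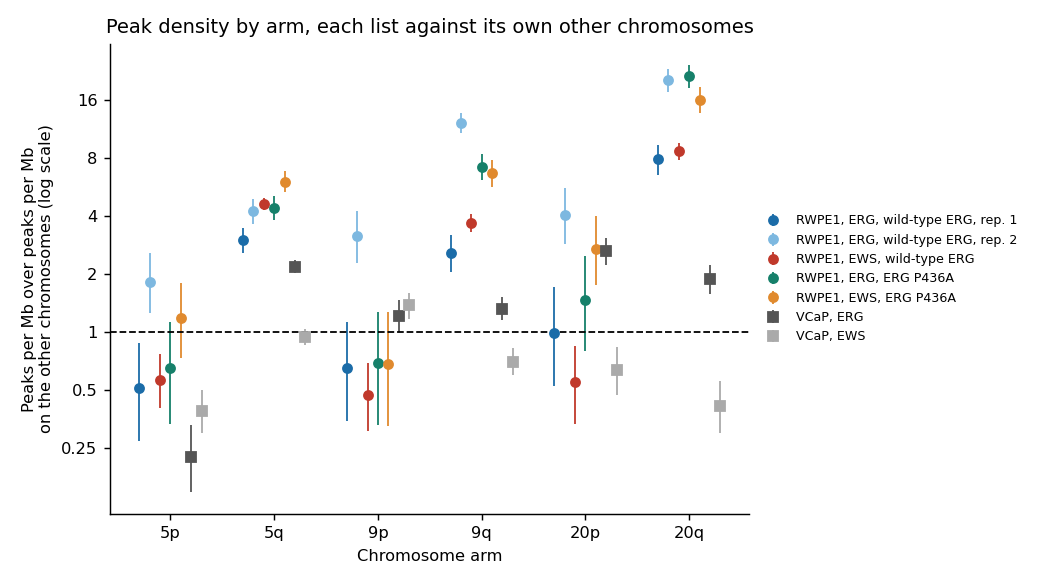
Peaks per Mb on each arm divided by peaks per Mb on the other chromosomes of the same list (log scale), with exact 95% intervals that cover counting error only. The 5 RWPE1 lists (circles) lie at 2.56 or more on 5q, 9q and 20q, whereas the VCaP lists (squares) lie at 2.18 or less there.

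Along 5q the RWPE1 lists were above their other chromosomes in every block, in some of them only slightly. In blocks of 5 Mb counted from the boundary of the arms, 26 of 26 blocks of 5q were above the mean of the other chromosomes in each of the 5 RWPE1 lists. Over all chromosomes this held for 38.4% of blocks in replicate 1, 44.7% in replicate 2, 42.9% for ERG P436A, 32.4% for EWS with wild-type ERG and 49.1% for EWS with ERG P436A. The lowest block of 5q was at 1.04 times for ERG P436A (2 peaks) and at 1.37 to 1.55 times in the other RWPE1 lists. Above 2 times were 20 blocks in each wild-type replicate and 23 for ERG P436A. For EWS there were 25 such blocks with wild-type ERG and 24 with ERG P436A. The share above 2 times over all chromosomes is not given. In VCaP, 10 of the 26 blocks were above the mean for ERG (27.8% over all chromosomes) and 4 for EWS (18.5%). On 20q, 6 of 6 blocks were above in each RWPE1 list, and on 9q 12 or 13 of 13. For VCaP ERG 5 of 6 blocks were above on 20q and 6 of 13 on 9q, and for VCaP EWS 0 and 1. On 5p, 1 of 9 blocks was above in replicate 1 and in the EWS list of wild-type ERG cells, 3 for ERG P436A, 6 for EWS with ERG P436A and 7 in replicate 2. The change lay around the centromere of chromosome 5. The EWS list of wild-type ERG cells had 3 peaks at 40 to 50 Mb and 73 at 50 to 60 Mb, and ERG P436A had 1 and 20. In the same blocks replicate 1 had 3 and 16, replicate 2 had 4 and 12, and EWS with ERG P436A had 4 and 27. In the first 5 Mb of 5q the last of these lists was at 1.55 times its other chromosomes (3 peaks), and the rise came in the next block (8.81 times, 17 peaks), whereas the other 4 lists were at 2.66 to 4.69 times in the first block.

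**Figure D2:**
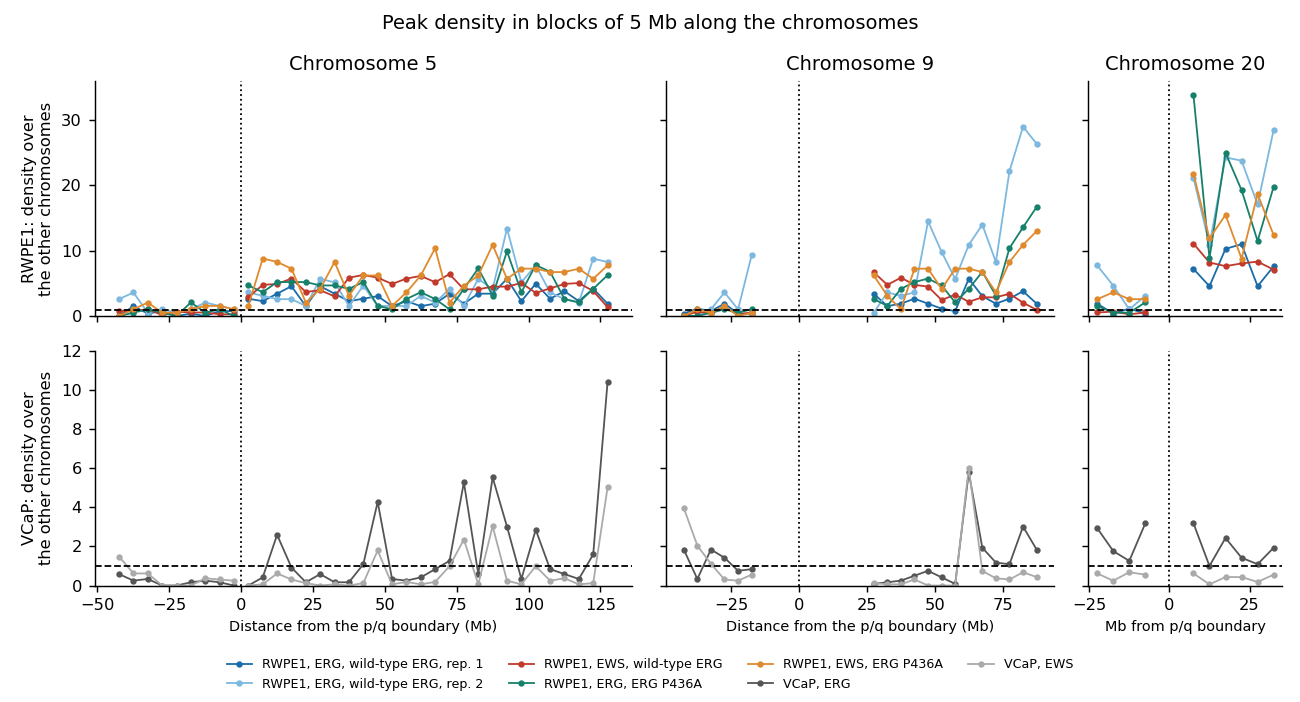
Peak density in blocks of 5 Mb over that on the other chromosomes of the same list, against distance from the boundary of the short (negative) and long (positive) arm, with the left-out windows blank and different vertical scales for RWPE1 (top) and VCaP (bottom). The RWPE1 lists are above 1 in 26 of 26 blocks of 5q, while VCaP ERG is above 1 in 10 of them and reaches 10.4 in the last.

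In bins of 1 Mb the RWPE1 peaks were spread over most of the long arms. On 5q, 129 of 133 bins held an EWS peak with wild-type ERG, with at most 17 peaks in a bin, and 102 held a peak of replicate 1, with at most 6. The variance of the counts over their mean, which is near 1 for counts scattered at random and large for clustered ones, was 1.43 and 1.10 for these lists on 5q. It was 1.45 for EWS with ERG P436A, 2.20 for ERG P436A and 2.43 for replicate 2. VCaP peaks on the same arm were clustered, with values of 28.6 for ERG and 29.2 for EWS. The other long arms did not show this order. On 20q the value was 3.44 for replicate 2 and 3.88 for ERG P436A against 2.31 for VCaP ERG and 1.10 for VCaP EWS. On 9q it was 5.62 for replicate 2 and 4.18 for ERG P436A, with 6.01 for VCaP ERG and 11.9 for VCaP EWS. The fullest ERG bin of VCaP, 179 to 180 Mb, had 80 peaks and 61 for EWS, whereas each RWPE1 list had 0 to 9 in it. Over the 348 bins of chromosomes 5, 9 and 20, 50% of the peaks took 53 bins in replicate 1, 42 in replicate 2, 34 for ERG P436A, 75 for EWS with wild-type ERG and 62 for EWS with ERG P436A. For VCaP they took 34 bins (ERG) and 19 bins (EWS).

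The 3 fullest bins of each RWPE1 list lay on 20q, except for 2 on 9q in replicate 2. In replicate 1 they included 48 to 49 Mb (9 peaks) and 43 to 44 Mb (8 peaks), near the middle of 20q. The bin at 30 to 31 Mb of chromosome 20 was the fullest of replicate 1 (11 peaks) and of EWS with wild-type ERG (22), and held 18 peaks of ERG P436A and 6 each of replicate 2 and EWS with ERG P436A. At 32 to 33 Mb, ERG P436A had 19 peaks, EWS had 17 with wild-type ERG and 14 with ERG P436A, while replicates 1 and 2 had 4 and 1. At 31 to 32 Mb, EWS had 17 peaks with wild-type ERG and 16 with ERG P436A, ERG P436A had 6, and the replicates had 2 and 1. At 62 to 63 Mb, near the end of the chromosome, replicate 2 had 20 peaks, ERG P436A 19, EWS with wild-type ERG 12, replicate 1 7 and EWS with ERG P436A 3. On chromosome 9, the bin at 130 to 131 Mb held 28 peaks of replicate 2 and 2 of replicate 1, and the bin at 139 to 140 Mb held 21 of replicate 2, 16 of ERG P436A and 0 of replicate 1.

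Position along 9q separated the lists more than position along the other arms. Beyond the midpoint of its counted part (107 Mb) lay 77.5% of the 9q peaks of replicate 2 (72.5% to 81.9%) and 74.2% of those of ERG P436A (67.4% to 80.3%). The share was 58.1% for replicate 1 (47.4% to 68.2%) and 61.8% for EWS with ERG P436A (54.2% to 69.0%). The opposite lean was that of EWS with wild-type ERG, with 33.6% (28.8% to 38.7%), and its 10 Mb block at 80 to 90 Mb held 78 peaks against 8 to 11 in each other RWPE1 list. At 130 to 140 Mb it had 24 peaks, whereas replicate 2 had 122 and ERG P436A 72. On 5q the shares beyond the midpoint (115 Mb) lay between 46.4% (EWS with wild-type ERG) and 65.3% (replicate 2), and on 20q, beyond 47 Mb, between 40.8% (ERG P436A) and 57.8% (replicate 2).

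Bin counts of the lists were compared over the 237 bins of 1 Mb on 5q, 9q and 20q, as a description. These bins share the arm levels given above. The closest pair on both measures was replicate 2 and ERG P436A among the RWPE1 lists, with Pearson's r of 0.690 and Spearman's rho of 0.595. Replicate 1 and ERG P436A had 0.553 and 0.390, and ERG P436A and EWS in the same cells 0.480 and 0.436. The wild-type replicates had values of 0.388 and 0.318. The EWS lists had 0.351 and 0.227 with each other, and EWS with wild-type ERG had 0.0514 and -0.0624 with replicate 2. Within 5q alone (133 bins), where no difference between arms enters, replicate 2 and ERG P436A had 0.522 and 0.385 and the EWS lists 0.106 and 0.102. ERG P436A and EWS in the same cells had 0.149 and 0.228 there. Within 9q replicate 2 and ERG P436A had 0.740 and 0.681. Within 20q this pair was not the closest, with 0.520 and 0.563. Replicate 1 and ERG P436A had 0.616 and 0.616 on 20q, and the wild-type replicates 0.540 and 0.602. ERG P436A and VCaP ERG had 0.713 and 0.716 on 20q, above these RWPE1 pairs. Replicate 2 and VCaP ERG had 0.420 and 0.664 within 9q, where EWS with wild-type ERG had -0.322 and -0.422 with VCaP ERG. Within 5q the values with VCaP ERG were 0.132 and 0.203 for ERG P436A and 0.190 and 0.278 for replicate 2. VCaP ERG and EWS had 0.942 and 0.627 over the 237 bins, while the RWPE1 lists had Pearson values between -0.103 and 0.121 with the VCaP lists. Spearman's rho of these pairs ran from -0.0721 to 0.432, and with VCaP ERG it was 0.432 for replicate 2, 0.387 for ERG P436A and 0.317 for EWS with ERG P436A, near or above the 0.318 of the wild-type replicates.

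Whether the lists shared sites on these chromosomes more often than elsewhere was asked by counting peaks that overlapped a peak of another list by at least 1 bp, with Fisher's exact test (two-sided) against the other chromosomes. Benjamini-Hochberg adjustment covered the 42 ordered pairs of the 7 lists. Peaks are not replicates, so the test compares lists and not conditions. Of the 20 ordered pairs of RWPE1 lists, 11 had a higher share on chromosomes 5, 9 and 20 and 2 a lower share at an adjusted p under 0.05. More overlap is found where both lists are dense, and these chromosomes were chosen for their density. The exact tests alone therefore cannot separate shared sites from density. Bins of 1 Mb with like numbers of peaks, both lists counted together, were then compared (Mantel-Haenszel odds ratios and chi-square test over 4 strata of crowding). In these strata 4 pairs were higher and 4 lower. The strata do not match the density of the searched list alone, so density can still enter these odds ratios. The 4 higher ones were replicate 1 in replicate 2 and in ERG P436A, and EWS of wild-type ERG cells in replicate 2 and in ERG P436A. The other 7 of the 11 were not called within strata.

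Among the ERG lists, 50 of 476 replicate 1 peaks were found in replicate 2 (10.5%), against 64 of 1393 on the other chromosomes (4.59%) and 6.05% over all chromosomes. The odds ratio was 2.44 (1.62 to 3.64; Fisher's exact adjusted p = 5.86e-05), and 1.83 within strata of crowding (chi-square adjusted p = 0.0112). Seen from replicate 2, 51 of 917 peaks (5.56%) were found in replicate 1, against 6.24% on the other chromosomes and 5.94% over all, the odds ratio being 0.884 (0.593 to 1.31; Fisher's exact adjusted p = 0.671), and within strata this share was lower here (0.563, chi-square adjusted p = 0.0310). Replicate 2 had a larger part of its list on these chromosomes (47.0% against 25.0%), so the shares of the 2 lists differ. By chromosome, 24 of 149 replicate 1 peaks on chromosome 20 were in replicate 2 (16.1%, 10.6% to 23%), 12 of 106 on chromosome 9 (11.3%) and 14 of 221 on chromosome 5 (6.33%, 3.51% to 10.4%).

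The P436A mutant list was found at 82 of the 476 replicate 1 peaks (17.2%; 11.6% over all chromosomes), against 9.76% on the other chromosomes, the odds ratio being 1.92 (1.41 to 2.61; Fisher's exact adjusted p = 8.50e-05). Of the 149 replicate 1 peaks on chromosome 20, 40 had an ERG P436A peak (26.8%, 19.9% to 34.7%), and on chromosome 5 24 of 221 did (10.9%, 7.08% to 15.7%). In the other direction 82 of 716 ERG P436A peaks had a replicate 1 peak (11.5%; 12.7% over all chromosomes), against 13.4% elsewhere, the odds ratio being 0.838 (0.617 to 1.13; Fisher's exact adjusted p = 0.315) and 0.608 within strata (chi-square adjusted p = 0.00916). Replicate 2 and ERG P436A had higher shares here in both directions. ERG P436A was at 79 of 917 replicate 2 peaks (8.62%; 6.81% over all chromosomes) against 5.27% elsewhere, the odds ratio being 1.69 (1.17 to 2.47; Fisher's exact adjusted p = 0.00966). Replicate 2 was at 79 of 716 ERG P436A peaks (11.0%; 7.62% over all chromosomes) against 5.31% elsewhere, the odds ratio being 2.21 (1.52 to 3.23; Fisher's exact adjusted p = 5.94e-05). Within strata of crowding these odds ratios were 0.80 and 1.11, and neither was called (chi-square adjusted p = 0.555 and 0.861). The first was also not called with a reciprocal overlap of 0.5 (odds ratio 1.55, Fisher's exact adjusted p = 0.0675).

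Between ERG and EWS in wild-type ERG cells the odds ratios of the replicates lay on opposite sides of 1 by plain overlap. Within strata of crowding both were below 1 from the ERG side. From the EWS side they stayed on opposite sides (0.226 for replicate 1 and 2.04 for replicate 2). EWS peaks lay at 26 of 476 replicate 1 peaks (5.46%; 9.26% over all chromosomes), against 9.33% on the other chromosomes, the odds ratio being 0.561 (0.349 to 0.874; Fisher's exact adjusted p = 0.0168). By Fisher's exact test this call was lost without chromosome 1 among the others (0.793, adjusted p = 0.460), with the windows around the centromeres kept in (0.891, adjusted p = 0.684), with a reciprocal overlap of 0.5 (adjusted p = 0.0555) and with centres within 500 bp (adjusted p = 0.0510). Within strata it was 0.289 (chi-square adjusted p = 8.72e-06). Of the EWS peaks, 26 of 1772 lay at a replicate 1 peak (1.47%; 3.03% over all chromosomes), against 3.32% elsewhere (odds ratio 0.433, 0.272 to 0.667; Fisher's exact adjusted p = 1.48e-04), and 0.226 within strata (chi-square adjusted p = 3.88e-08). Replicate 2 had EWS at 36 of 917 peaks (3.93%; 3.23% over all chromosomes) against 2.44% elsewhere (odds ratio 1.63, 0.946 to 2.86; Fisher's exact adjusted p = 0.110), and 0.811 within strata (chi-square adjusted p = 0.739). From the EWS side, 36 of 1772 peaks lay at a replicate 2 peak (2.03%; 1.10% over all chromosomes) against 0.644% elsewhere (odds ratio 3.20, 1.86 to 5.57; Fisher's exact adjusted p = 5.63e-05), and 2.04 within strata (chi-square adjusted p = 0.00879). The EWS list held 895 peaks on 5q, and on the whole of chromosome 5, 11 of its 935 peaks overlapped replicate 1 and 6 overlapped replicate 2.

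In P436A cells, 22 of 716 ERG peaks had an EWS peak (3.07%; 2.18% over all chromosomes), against 1.38% on the other chromosomes, the odds ratio being 2.27 (1.10 to 4.83; Fisher's exact adjusted p = 0.0306). From the EWS side 22 of 747 had an ERG P436A peak (2.95%; 2.13% over all chromosomes) against 1.37% (odds ratio 2.19, 1.06 to 4.65; Fisher's exact adjusted p = 0.0433). Of the 22 ERG peaks, 13 lay on chromosome 20, 7 on chromosome 9 and 2 on chromosome 5. Within strata of crowding neither direction passed the threshold (odds ratios of 1.61 and 1.34, chi-square adjusted p = 0.458 and 0.693). EWS peaks of P436A cells also lay at wild-type ERG replicate 2 peaks, 25 of 747 (3.35%; 2.35% over all chromosomes) against 1.56% elsewhere (odds ratio 2.18, 1.11 to 4.40; Fisher's exact adjusted p = 0.0306), 15 of them on chromosome 20, and within strata the odds ratio was 0.912 (chi-square adjusted p = 0.980). With a reciprocal overlap of 0.5 it was 4.2, and those of ERG and EWS in P436A cells were 3.62 and 3.49. ERG P436A peaks had a peak of the longer EWS list of wild-type ERG cells at 45 of 716 (6.28%; 4.93% over all chromosomes) against 3.83% elsewhere (odds ratio 1.68, 1.06 to 2.68; Fisher's exact adjusted p = 0.0399), and within strata the odds ratio was 0.824 (chi-square adjusted p = 0.693). From the EWS side the share was 45 of 1772 (2.54%; 1.51% over all chromosomes) against 1.01% (odds ratio 2.57, 1.63 to 4.06; Fisher's exact adjusted p = 8.50e-05). Without chromosome 1 among the others these odds ratios rose to 4.13 and 5.78.

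The EWS lists shared 34 peaks on these chromosomes. They were 1.92% of the 1772 peaks with wild-type ERG (1.40% over all chromosomes), against 1.03% elsewhere (odds ratio 1.88, 1.15 to 3.05; Fisher's exact adjusted p = 0.0176). They were 4.55% of the 747 peaks with ERG P436A (4.48% over all chromosomes), against 3.91% elsewhere (odds ratio 1.17, 0.712 to 1.92; Fisher's exact adjusted p = 0.671). Leaving chromosome 1 out of the others raised the second odds ratio to 2.76 (Fisher's exact adjusted p = 0.00371), and strata of crowding turned it to 0.560 (chi-square adjusted p = 0.0967). The first was 4.0 without chromosome 1 and 1.23 within strata (chi-square adjusted p = 0.693).

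Seen from the RWPE1 ERG lists, the share of peaks with a VCaP ERG peak did not pass the test against the other chromosomes, with intervals that leave room for differences in both directions. A VCaP ERG peak lay at 49 of 476 replicate 1 peaks (10.3%; 8.57% over all chromosomes), the odds ratio being 1.31 (0.902 to 1.89; Fisher's exact adjusted p = 0.190). It lay at 42 of 917 replicate 2 peaks (4.58%; 4.56% over all chromosomes), the odds ratio being 0.999 (0.636 to 1.56; Fisher's exact adjusted p = 1.00). For ERG P436A it was 46 of 716 (6.42%; 6.59% over all chromosomes), the odds ratio being 0.958 (0.636 to 1.43; Fisher's exact adjusted p = 0.910). VCaP EWS peaks lay at 21 of 1772 EWS peaks with wild-type ERG (1.19%; 1.23% over all chromosomes) and 15 of 747 with ERG P436A (2.01%; 2.74% over all chromosomes), with adjusted p of 1.00 and 0.241 (Fisher's exact). Of the 10 pairs that ask which RWPE1 peaks had a VCaP peak, 0 were higher here and 1 was lower. VCaP EWS peaks lay at 20 of 917 replicate 2 peaks (2.18%; 3.69% over all chromosomes), against 4.98% elsewhere, the odds ratio being 0.426 (0.239 to 0.734; Fisher's exact adjusted p = 0.00281).

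Seen from the VCaP lists, 9 of the 10 pairs were higher on chromosomes 5, 9 and 20, and 7 within strata of crowding. Replicate 1 peaks lay at 49 of 1350 VCaP ERG peaks (3.63%; 2.11% over all chromosomes) against 1.77% elsewhere (odds ratio 2.09, 1.46 to 2.97; Fisher's exact adjusted p = 1.67e-04). Replicate 2 lay at 42 (3.11%; 1.15% over all chromosomes) against 0.742% elsewhere, with odds 4.29 times as high (2.75 to 6.68; Fisher's exact adjusted p = 1.96e-09). ERG P436A lay at 46 (3.41%; 1.49% over all chromosomes) against 1.07% elsewhere, with odds 3.25 times as high (2.17 to 4.82; Fisher's exact adjusted p = 1.01e-07). A reciprocal overlap of 0.5 moved the last pair of odds ratios to 6.54 and 4.97. Of the 886 VCaP EWS peaks, 21 had an EWS peak of wild-type ERG cells (2.37%; 0.747% over all chromosomes), against 0.548% elsewhere (odds ratio 4.40, 2.49 to 7.56; Fisher's exact adjusted p = 4.38e-06). An EWS peak of P436A cells lay at 15 (1.69%; 0.516% over all chromosomes), against 0.373% elsewhere (odds ratio 4.60, 2.30 to 8.78; Fisher's exact adjusted p = 5.94e-05). The RWPE1 lists in which VCaP peaks were sought were themselves 2.62 to 6.85 times as dense on these chromosomes, which were chosen for that density. A higher share of VCaP peaks found there was thus partly fixed by the choice. The strata count both lists together and the VCaP lists are the longer, so they do not remove this. These tests therefore cannot separate shared sites from density.

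**Figure D3:**
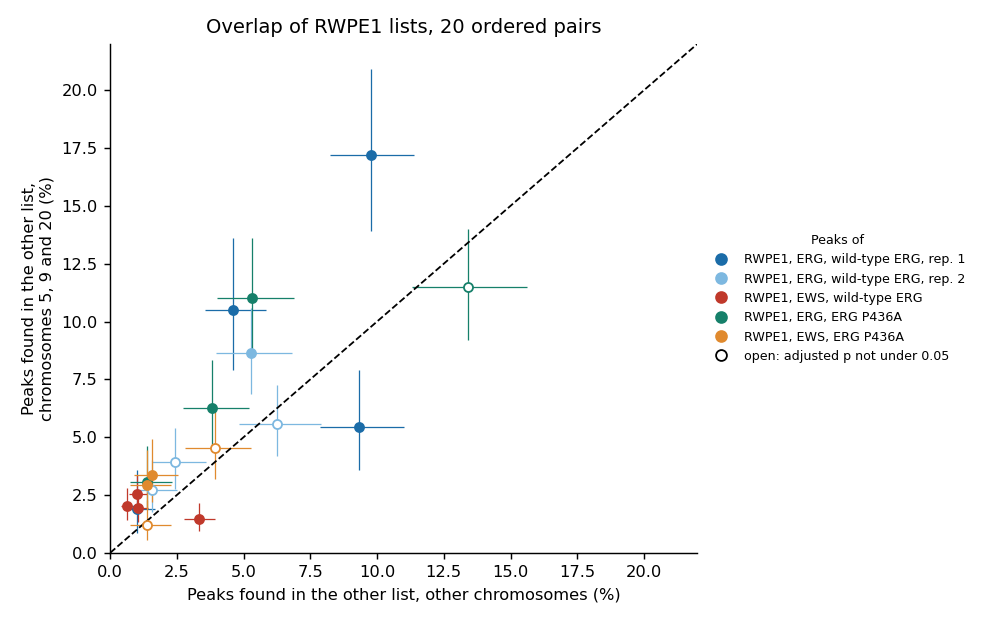
Share of the peaks of an RWPE1 list that overlapped a peak of another RWPE1 list, on chromosomes 5, 9 and 20 (vertical) against the other chromosomes (horizontal), for the 20 ordered pairs, with exact 95% intervals that cover counting error only. Filled points have an adjusted p under 0.05 by Fisher's exact test; 11 of them lie above the dashed line of equal shares and 2 below it.

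Most of the peaks stood in a single list. Merged where they overlapped, the RWPE1 peaks made 4276 regions on chromosomes 5, 9 and 20, of which 3978 had a peak in 1 list, 250 in 2, 43 in 3, 5 in 4 and 0 in all 5. Of 7870 regions on the other chromosomes, 7467 had a peak in 1 list, 347 in 2, 50 in 3, 4 in 4 and 2 in all 5. On chromosomes 5, 9 and 20, regions of 2 or more lists made up 6.97% (6.22% to 7.77%), against 5.88% over all chromosomes and 5.12% on the other chromosomes. Without replicate 2 the number of such regions fell from 298 to 194, and without replicate 1 to 212. On 20q, 131 of 1123 regions were in 2 or more lists (11.7%, 9.85% to 13.7%), on 9q 79 of 1066 (7.41%, 5.91% to 9.15%) and on 5q 84 of 1754 (4.79%, 3.84% to 5.90%). The short arms had 4 of 333 (1.20%, 0.328% to 3.05%). Per Mb, regions of a single list were 10.7 times as dense on 20q as on the other chromosomes (9.97 to 11.4), and those of several lists 26.1 times (21.3 to 31.9). On 5q the same ratios were 4.47 (4.24 to 4.72) and 4.17 (3.26 to 5.29), with intervals that overlap. On the short arms they were 1.05 (0.936 to 1.17) and 0.236 (0.0640 to 0.609). Overlap between lists rises with the density of each, and these shares and ratios were not adjusted for crowding. They therefore cannot tell whether sites were shared more often than density alone gives.

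**Figure D4:**
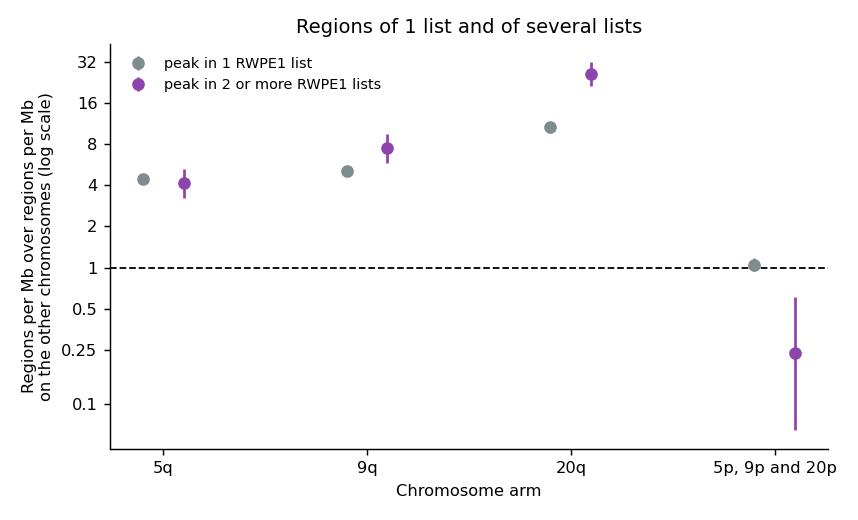
Density of merged RWPE1 regions with a peak in 1 list (grey) and in 2 or more lists (purple) relative to the other chromosomes (log scale), with exact 95% intervals that cover counting error only. On 20q the values are 10.7 and 26.1, on 5q 4.47 and 4.17, and on the short arms 1.05 and 0.236. The values are not adjusted for the density of the lists, which raises overlap.

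More than 50% of the 48 regions found in 3 or more RWPE1 lists lay on 20q. Of them 27 lay on 20q, 11 on 5q, 9 on 9q, 1 on 20p and 0 on 5p and 9p. All 3 ERG lists were present at 27 and both EWS lists at 5, and 11 had a VCaP ERG peak and 1 a VCaP EWS peak. Of the 250 regions in 2 lists, 50 paired ERG P436A with replicate 1, 44 ERG P436A with replicate 2 and 18 the wild-type replicates. A further 33 paired ERG P436A with EWS of wild-type ERG cells, 29 the EWS lists, and 16 ERG P436A with EWS of its own cells. For regions of the other chromosomes, neither the lists that met nor the share with a VCaP peak is given. The counts of lists, pairs and VCaP peaks at these regions are thus a description only.

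The 5 regions found in 4 lists were on 9q and 20q. All 3 ERG lists and EWS of P436A cells had a peak at chromosome 9, 132095707 to 132097102, and EWS of wild-type ERG cells had none there. It stood early in the ERG lists, as number 19 of 1901 in replicate 1, 33 of 1953 in replicate 2 and 22 of 1746 for ERG P436A, and late in the EWS list of P436A cells, as number 1724 of 1786. It was also the region of the 5 with a VCaP ERG peak, number 3138 of 7712. Chromosome 9, 91392489 to 91393458, had all 3 ERG lists and EWS with wild-type ERG, and stood at 97 in replicate 1, 105 in replicate 2, 674 for ERG P436A and 2887 of 5703 for EWS. Chromosome 20, 62165177 to 62165798, was found in the same 4 lists. Chromosome 9, 79186196 to 79187313, had both wild-type replicates and both EWS lists and no ERG P436A peak. Chromosome 20, 62542306 to 62542879, had both EWS lists, ERG P436A and replicate 1, and stood at 49 of 1746 for ERG P436A and 46 of 1786 for EWS in the same cells.

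Regions of 3 lists that came first along chromosome 5 were all on its long arm. ERG P436A, replicate 1 and EWS with wild-type ERG had peaks at chromosome 5, 71146243 to 71147384, and at chromosome 5, 74062595 to 74063399, the latter with a VCaP ERG peak. The region at chromosome 5, 73938937 to 73939839, had all 3 ERG lists, each late in its list (1520 of 1901, 1697 of 1953 and 1387 of 1746). The wild-type replicates and EWS in the same cells met at chromosome 5, 90606969 to 90608219. At chromosome 5, 91100232 to 91100917, replicate 2, EWS with wild-type ERG and ERG P436A each had a peak near the end of the list (1946 of 1953, 5658 of 5703 and 1689 of 1746).

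Peaks on the long arms stood later in the lists than other peaks. The order is not documented as a ranking, so this is a description of the lists. From the first 25% to the last 25% of the list, 5q, 9q and 20q held 18.3% and 32.8% of the peaks of replicate 1, 33.3% and 48.4% of replicate 2, and 29.1% and 53.0% of ERG P436A. For EWS they held 21.8% and 42.3% with wild-type ERG, and 30.6% and 49.1% with ERG P436A. In VCaP the shares were 11.8% and 15.7% for ERG and 3.41% and 10.8% for EWS. The intervals of the first and last values did not overlap in any of the 7 lists, so the later listing was found in both cell lines. The short arms rose too in some lists, on few peaks outside replicate 2. The share of 5p, 9p and 20p rose from 3.89% to 9.02% in replicate 2 (19 and 44 peaks) and from 1.37% to 2.98% for ERG P436A (6 and 13). For EWS it rose from 1.05% to 1.82% with wild-type ERG (15 and 26) and from 3.13% to 4.26% with ERG P436A (14 and 19). In replicate 1 it fell from 3.15% to 1.26% (15 and 6). In VCaP it went from 4.36% to 4.10% for ERG and from 2.69% to 3.96% for EWS. Already in the first 50% of each RWPE1 list, chromosomes 5, 9 and 20 were denser than the other chromosomes, at 2.09 times in replicate 1, 5.30 in replicate 2, 3.80 for ERG P436A, 2.63 for EWS with wild-type ERG and 4.23 for EWS with ERG P436A. Median widths were close to those elsewhere, at 618 against 607 bp in replicate 1 and 508 against 500 bp in replicate 2. They were 492 against 490 bp for ERG P436A, 500 against 500 bp for EWS with wild-type ERG and 492 against 489 bp for EWS with ERG P436A. The widest peak on these chromosomes was 501 bp in both P436A lists and in VCaP EWS, against 2297 bp in replicate 1, 1764 bp in replicate 2, 1626 bp for EWS with wild-type ERG and 6876 bp for VCaP ERG. The lists thus differed in the peak widths they hold, and with centres within 500 bp as the criterion, which does not use width, 11 RWPE1 pairs were higher and 1 lower.

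**Figure D5:**
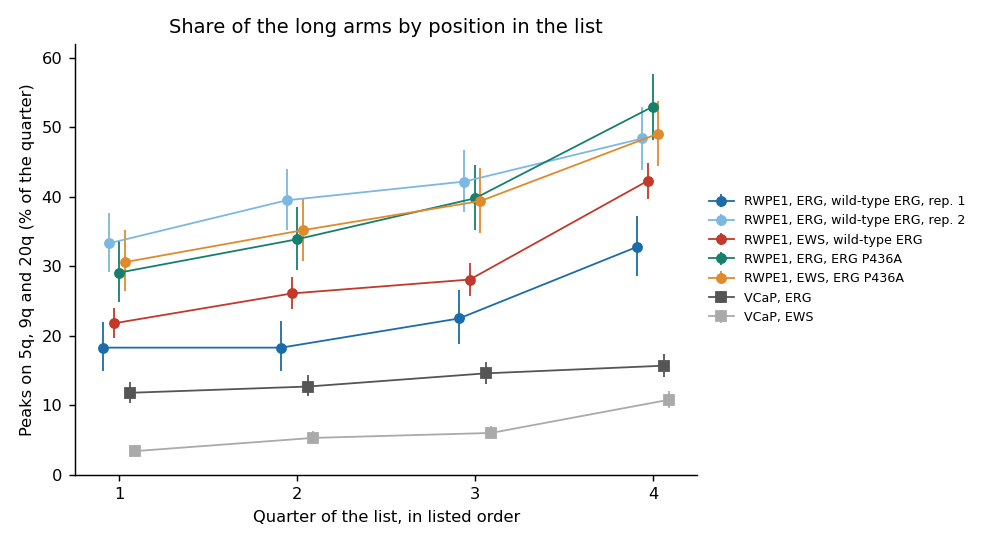
Share of peaks on 5q, 9q and 20q in each successive 25% of the list, in listed order, with exact 95% intervals that cover counting error only. The share rises from 29.1% to 53.0% for ERG P436A and from 18.3% to 32.8% for wild-type ERG replicate 1, and stays at 15.7% or less in the VCaP lists (squares).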

How the data were processed

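Each deposited list gives chromosome, start and end of its peaks in 3 columns, with no height, score or p-value, so the unit of the deposited values is a position in base pairs. The submitters' processing notes name Bowtie2 (with 0.12.8 as its version) and hg19. For the peak caller, the threshold and the control, the sources used here give nothing. The 3 input samples were not used here, and 0 columns belong to another series. Starts were read as 0-based and are printed as 1-based. Chromosome lengths and arm boundaries were entered by hand as those of hg19 and its standard cytogenetic bands, not read from a deposited file. Peaks were assigned by their centre. Intervals of densities are exact conditional binomial, and those of shares Clopper-Pearson, at 95%. Regions were named by the number of RWPE1 lists they were found in, up to 10, and bins as the 3 fullest of each list. The chromosomes, lists and tests were chosen with earlier results of these data known. Overlap was also tested in 4 strata of the peaks of both lists in a 1 Mb bin (1 to 4, 5 to 9, 10 to 19, and 20 or more). Functions were tested on simulated lists. Python 3.11.15, NumPy 2.4.6, SciPy 1.17.1 and statsmodels 0.14.6 were used.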

Additional observations from a re-analysis of the deposited data

Results flagged for a closer look

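On chromosome 20 the density of the long over the short arm was 0.714 for VCaP ERG and 0.653 for VCaP EWS, below 1, while all 5 RWPE1 lists were above 1 (5.01 to 15.9). This difference between the cell lines was not tested.

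Peaks in the left-out windows enter no comparison above. They numbered 24 in replicate 1 of wild-type ERG, 11 in replicate 2, 40 for EWS with wild-type ERG, 12 for ERG P436A and 16 for EWS with ERG P436A. In the same order, the density in the chromosome 20 window was 2.20, 0.600, 3.80, 0.600 and 1.20 peaks per Mb. In the chromosome 9 window it was 0.382, 0.235, 0.618, 0.265 and 0.294. On the other chromosomes it was 0.525, 0.387, 1.46, 0.384 and 0.386.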

How the results depend on the processing

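The ratio of density on chromosomes 5, 9 and 20 over the other chromosomes stayed above 1 in the 5 RWPE1 lists and in VCaP ERG, and below 1 in VCaP EWS, under each alternative run. In the order replicate 1, replicate 2, EWS with wild-type ERG, ERG P436A, EWS with ERG P436A, VCaP ERG and VCaP EWS, it was 2.29, 6.0, 3.07, 4.72, 4.90, 1.43 and 0.693 with occupied bins as the denominator, and 2.09, 5.30, 2.63, 3.80, 4.23, 1.45 and 0.577 in the first 50% of the list. With the windows kept in it was 6.23 for replicate 2, 3.21 for EWS with wild-type ERG, 1.49 for VCaP ERG and 0.734 for VCaP EWS. Without chromosome 1 it was 3.35 for replicate 1, 4.6 for EWS with wild-type ERG, 6.62 for ERG P436A and 6.78 for EWS with ERG P436A. Leaving out a replicate gave 2.62 to 6.85 for wild-type ERG and 194 to 212 regions of several lists.

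Of the overlap odds ratios, strata of crowding (chi-square test) gave 0.563 (replicate 2 in replicate 1, adjusted p = 0.0310), 0.608 (ERG P436A in replicate 1, adjusted p = 0.00916), 0.80 (replicate 2 in ERG P436A), 1.11 (ERG P436A in replicate 2), 0.811 (replicate 2 in EWS with wild-type ERG), 1.61 and 1.34 (ERG P436A in EWS of its cells, and back), 1.23 and 0.560 (EWS with wild-type ERG in EWS with ERG P436A, and back), 0.824 (ERG P436A in EWS with wild-type ERG) and 0.912 (EWS with ERG P436A in replicate 2). By Fisher's exact test, a reciprocal overlap of 0.5 gave 1.55 (replicate 2 in ERG P436A, adjusted p = 0.0675), 0.573 (replicate 1 in EWS with wild-type ERG, adjusted p = 0.0555), and 1.55, 1.5 and 1.06 for replicate 2, ERG P436A and EWS with wild-type ERG in the VCaP list of the same factor. Centres within 500 bp gave, by the same exact test, 0.613 (replicate 1 in EWS with wild-type ERG, adjusted p = 0.0510), and 1.12 and 1.05 for replicate 2 and ERG P436A in VCaP ERG. Without chromosome 1 the values were, by the same exact test, 0.793 (replicate 1 in EWS with wild-type ERG), 2.10 (replicate 2 in EWS with wild-type ERG, adjusted p = 0.0215), 2.76 (EWS with ERG P436A in EWS with wild-type ERG) and 0.502 (EWS with ERG P436A in VCaP EWS, adjusted p = 0.0470). Among calls that held, leaving out chromosome 1 moved EWS with wild-type ERG in ERG P436A from 2.57 to 5.78, the reverse from 1.68 to 4.13, and EWS with wild-type ERG in EWS with ERG P436A from 1.88 to 4.0. A reciprocal overlap moved EWS with ERG P436A in replicate 2 from 2.18 to 4.2, and ERG P436A in EWS of its cells from 2.27 to 3.62 and back from 2.19 to 3.49. With the windows kept in they were 0.891 (replicate 1 in EWS with wild-type ERG) and 1.12 (EWS with wild-type ERG in VCaP EWS). The cause was not tested. The long over short arm ratios and the bins for 50% of the peaks moved by less than their intervals or 1.5 times. No paired analysis was possible because the labels number only the wild-type ERG lists. Depth is unknown and limits every count.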
